A study of Homo sapiens with 18 samples.

Results

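The genes of sterol and fatty acid synthesis were followed in A549 cells, a human lung carcinoma line with features of alveolar epithelium, kept at the air-liquid interface and exposed to gaseous formaldehyde. The set holds 28 genes, chosen by function, by a rule that uses no measured value, though with earlier results of these data known: the enzymes from acetyl-CoA to cholesterol, their regulators, and the enzymes that make, lengthen and desaturate fatty acids. Each was read from its brightest probe set, the one with the highest mean log2 signal over 18 arrays among those that name that gene alone, and 25 of the 28 genes had such a probe set, out of 19775 genes so named on the array. CYP51A1 and FADS1 lay only on probe sets that name several genes, and FDFT1 was named by no probe set in the annotation used here, so these 3 members have no value.

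Cells grew on transwell membranes for 72 h in either an exposure chamber or a reference chamber. In each of 9 experiments 1 culture from each chamber was hybridised. By its raw-file name the exposure-chamber array of replicate 2 at 0 ppm carries another date than the rest. Without it 0 members passed in any of the comparisons between groups that use it, and the medians given below became -0.15 at 0 ppm between chambers, 0.078 for 0.1 against 0 ppm and -0.060 for 0.5 against 0 ppm. The exposure chamber carried 0, 0.1 or 0.5 ppm formaldehyde in 3 experiments each, and the reference chamber never carried any. This gave 6 groups of 3 arrays, referred to as reference or exposure chamber of the 0, 0.1 or 0.5 ppm experiments. All groups share the single tumour line, the air-liquid interface and the duration. The signals are MAS5 intensities on a log2 scale. The 6 markers of A549 and epithelium were all above the median probe set, as were 3 of 5 measured alveolar type II markers. Of these, SFTPC and SFTPB lay close to it, at percentiles 53.6 and 58.5 of all probe sets, and ABCA3 at 76.2. None of the 2 measured leukocyte markers was above the median, against 1 of 3 endothelial and 1 of 3 fibroblast markers.

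Cells build cholesterol from acetyl-CoA by way of mevalonate, farnesyl diphosphate and squalene, and fatty acids from the same precursor by way of malonyl-CoA. Both pathways are controlled by the sterol regulatory element binding proteins, encoded by SREBF1 and SREBF2, which are held in the endoplasmic reticulum by INSIG proteins when sterols are plentiful and travel to the nucleus when sterols fall. In the alveolus, type II cells need these lipids for surfactant.

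The promoters of 4 members are shown, picked with the results below in view, though none of the 4 passed a threshold in the main fits. LSS, STARD4 and INSIG1 were among the members of largest F between experiments. SREBF2 had the most negative difference of any member between the chambers at 0 ppm. NSDHL and DHCR7, whose F was larger still (2.94 and 2.86), have windows that are not shown, as do TM7SF2 and SCD. Each run covers 250 bases before to 50 bases after the annotated start, 5′ to 3′ on the gene's strand, from RefSeq on GRCh38.p14. Capitals mark matches, on either strand, to TCACNCCAC (a sterol regulatory element), CCAAT (bound by NF-Y), GGGCGG (bound by Sp1) and CACGTG (an E-box).

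LSS, chr21:46228725-46229024, minus strand: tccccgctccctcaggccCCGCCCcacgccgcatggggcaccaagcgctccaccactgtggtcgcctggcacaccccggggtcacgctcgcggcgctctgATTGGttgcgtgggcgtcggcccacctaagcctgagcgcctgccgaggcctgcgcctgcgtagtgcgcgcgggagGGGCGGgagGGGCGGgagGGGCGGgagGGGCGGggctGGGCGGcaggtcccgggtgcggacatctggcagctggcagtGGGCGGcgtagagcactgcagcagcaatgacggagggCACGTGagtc
STARD4, chr5:111512486-111512785, minus strand: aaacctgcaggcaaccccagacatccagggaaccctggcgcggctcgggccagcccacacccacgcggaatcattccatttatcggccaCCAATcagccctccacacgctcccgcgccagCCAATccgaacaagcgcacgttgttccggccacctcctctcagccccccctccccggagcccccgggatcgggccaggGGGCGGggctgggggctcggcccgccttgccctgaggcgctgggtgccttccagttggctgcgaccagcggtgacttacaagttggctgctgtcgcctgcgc
INSIG1, chr7:155297628-155297927, plus strand: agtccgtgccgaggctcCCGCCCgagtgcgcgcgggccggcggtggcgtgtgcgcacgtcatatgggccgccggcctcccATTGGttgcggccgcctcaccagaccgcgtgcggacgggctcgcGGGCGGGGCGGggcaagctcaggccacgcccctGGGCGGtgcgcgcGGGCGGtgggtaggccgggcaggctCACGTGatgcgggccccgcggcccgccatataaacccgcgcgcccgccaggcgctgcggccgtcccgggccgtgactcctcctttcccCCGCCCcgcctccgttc
SREBF2, chr22:41832855-41833154, plus strand: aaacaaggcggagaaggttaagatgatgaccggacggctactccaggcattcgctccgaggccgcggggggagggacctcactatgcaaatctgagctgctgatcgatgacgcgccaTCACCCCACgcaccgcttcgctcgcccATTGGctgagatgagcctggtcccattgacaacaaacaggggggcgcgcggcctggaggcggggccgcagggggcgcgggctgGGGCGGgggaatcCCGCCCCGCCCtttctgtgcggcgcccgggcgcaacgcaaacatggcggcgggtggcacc

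The SREBF2 window held the sterol regulatory element motif followed by a CCAAT box on the minus strand 106 bases before the start. That sterol motif lay in 1 of 35 windows of the 25 members with an entry (2.86%) and in 1.13% of all 35116 promoter windows of the same length. LSS held 7 GGGCGG matches and INSIG1 held 6, matches that overlap being counted each, and both had a CACGTG. STARD4 held 2 CCAAT boxes and 1 GGGCGG. Over all member windows, CCAAT was found in 68.6% and GGGCGG in 82.9%, against 34.6% and 45% of all promoter windows, while CACGTG was found in 14.3% against 7.26%. SQLE, FDFT1 and FASN had no entry in the table. These matches describe letters in a window and are not measured binding sites.

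All 25 measured members lay above the median probe set, and how much they moved over the 18 arrays differed greatly from gene to gene. In the mevalonate branch, HMGCS1, the synthase at its entry, kept within 0.64 log2 units, between 13.08 and 13.72. MVK, the mevalonate kinase, spanned 1.96 and MVD, a decarboxylase later in the branch, spanned 1.76. IDI1, which isomerises isopentenyl diphosphate, spanned 1.33 and FDPS, the farnesyl diphosphate synthase, spanned 1.60. Of the members in this branch HMGCS1 had the smallest span. Without 2 arrays of low actin signal, described below, its span was still 0.64 and that of MVK was 1.19. MVK and MVD had low mean signals, at 6.34 and 5.35.

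Among the enzymes from squalene to cholesterol, TM7SF2, a sterol reductase, spanned 2.07 log2 units and DHCR7, the reductase of the last step, spanned 1.95. SQLE, the squalene epoxidase, spanned 1.55, LSS, which cyclises its product to lanosterol, 1.30, SC5D, a sterol desaturase, 1.27, NSDHL, which helps remove methyl groups, 1.23, and EBP, a sterol isomerase, 0.96. STARD4, a cytosolic sterol carrier, spanned 2.93, the most of any member over all 18 arrays. SREBF1 spanned 2.34, INSIG1 2.02 and SREBF2 1.37. Over the 16 arrays that remain without 2 arrays of low actin signal, described below, STARD4 spanned 1.59, TM7SF2 1.02 and INSIG1 0.91, and FASN was the widest.

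In fatty acid synthesis, FASN, the fatty acid synthase, spanned 2.33. ACLY, which supplies cytosolic acetyl-CoA, spanned 1.44, the acetyl-CoA carboxylases ACACA and ACACB 1.37 and 1.15, and ME1, a source of NADPH, 0.63. Of the desaturases and elongases, SCD, which makes oleate, had the smallest span over all 18 arrays at 0.52, between 13.54 and 14.07, and over those 16 arrays ME1 (0.40) and ELOVL6 (0.41) had smaller ones. ELOVL5 spanned 0.74, ELOVL6 0.84 and FADS2, the desaturase of polyunsaturated fatty acids, 1.60.

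**Figure D1:**
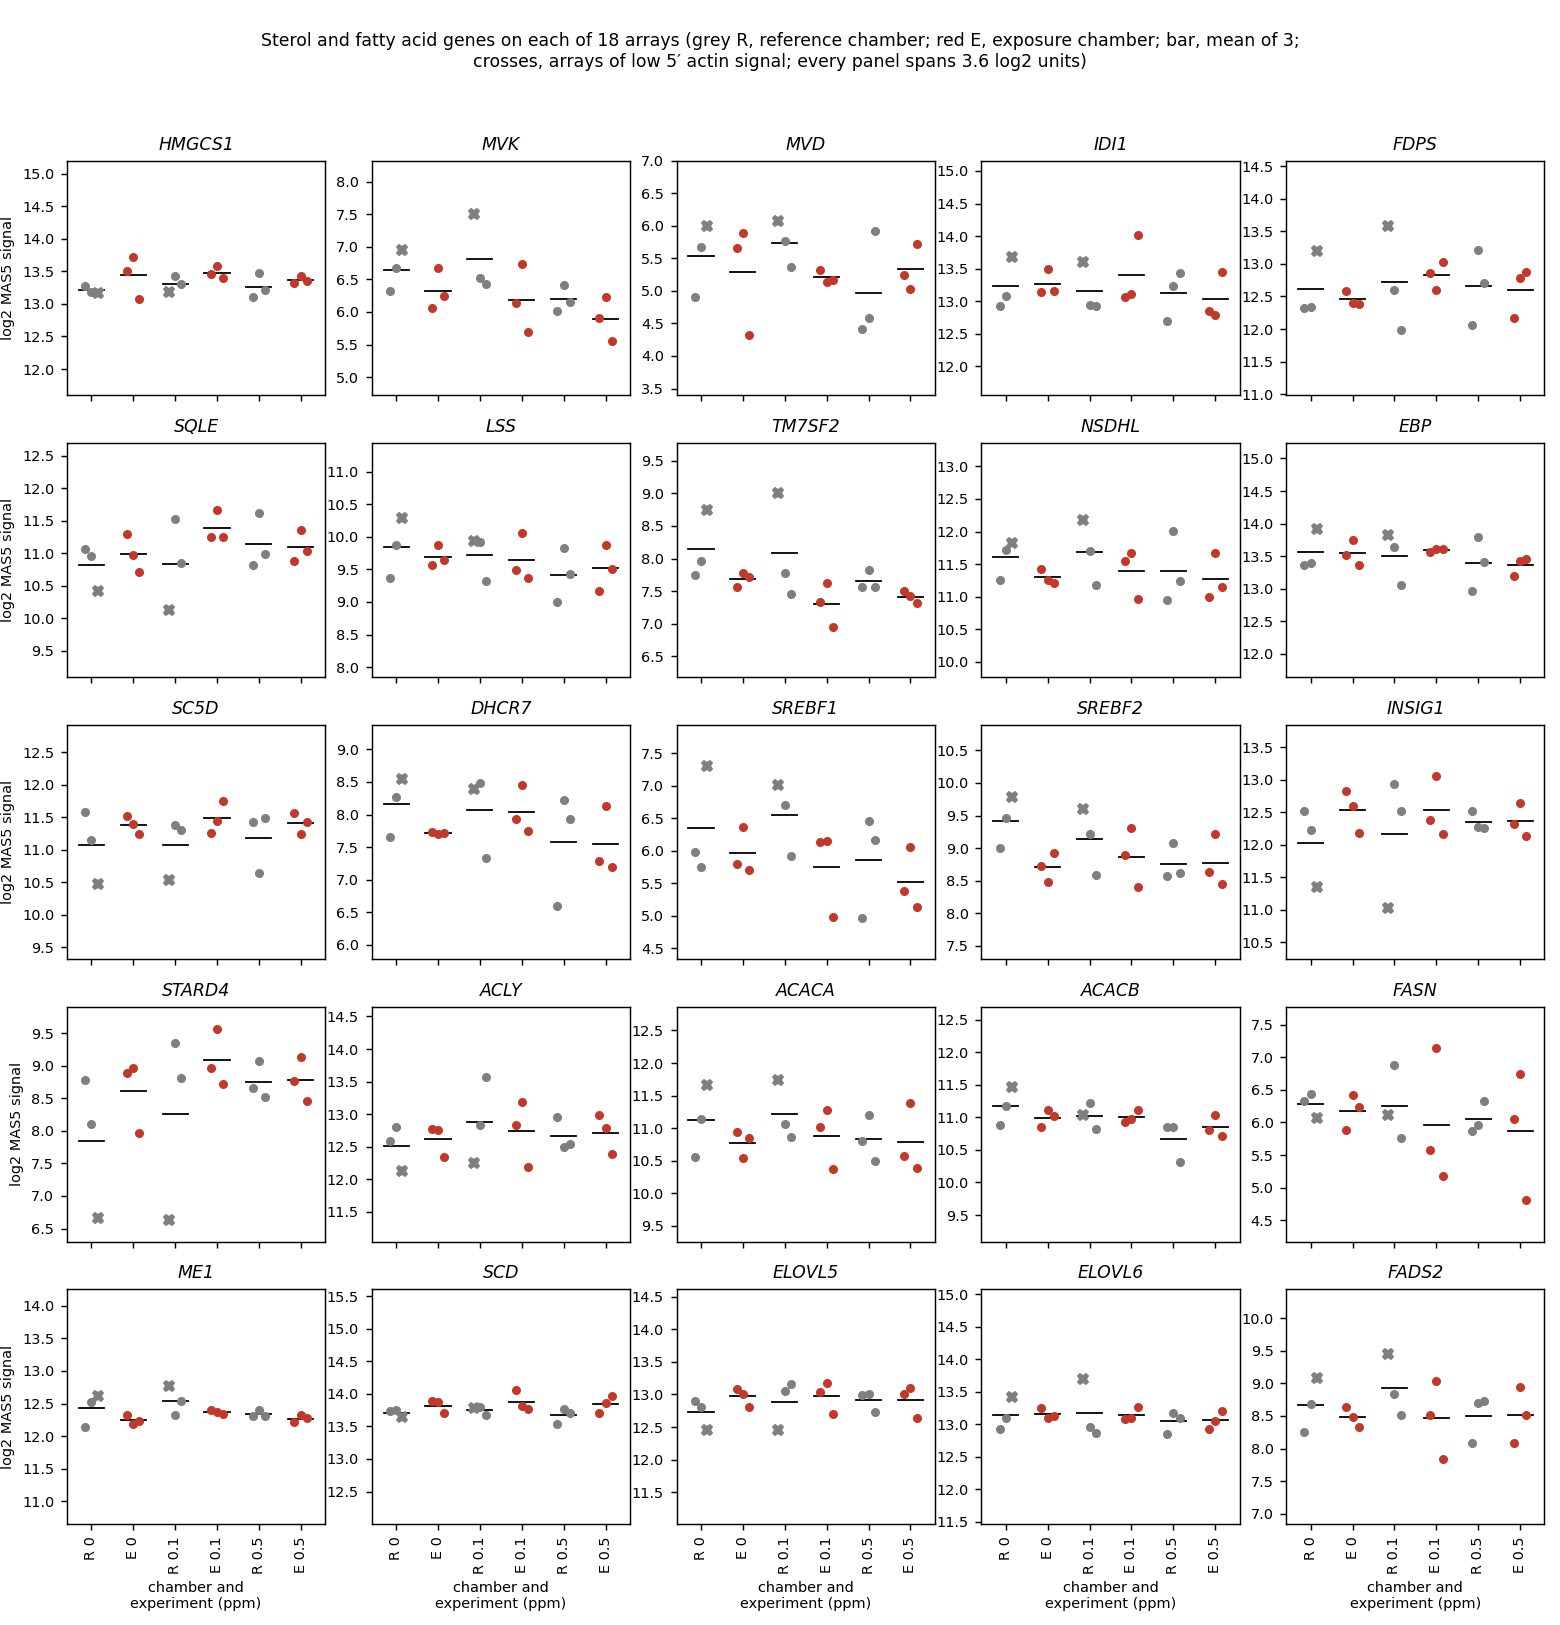
Log2 MAS5 signal (vertical axis) of the 25 measured members on each array, by chamber and experiment (horizontal axis, ppm in the exposure chamber); grey points are reference and red points exposure chambers, bars are means of 3 arrays, and crosses are the 2 arrays of low 5′ actin signal. SCD and HMGCS1 lie in a narrow band, whereas the 2 crosses of STARD4 sit at 6.66 and 6.64, below all its other points.

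Differences between whole arrays touch these genes and are given before the comparisons. On 2 reference-chamber arrays the control probe set at the 5′ end of actin mRNA was low, at 6.85 in the 0 ppm experiment of replicate 3 and 5.90 in the 0.1 ppm experiment of replicate 1, against 7.75 to 9.70 on the other 16. The control probe set at the 5′ end of GAPDH mRNA was not low on them. It read 14.61 and 14.67, against 13.67 to 14.31 on the other 16. The 2 arrays were picked out for the actin signal after the data had been seen. STARD4 read 6.66 and 6.64 there and 7.97 to 9.56 on the other 16 arrays, and INSIG1 read 11.36 and 11.03 against 12.14 to 13.05. TM7SF2 was on the other side, at 8.75 and 9.01 against 6.94 to 7.97.

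In all, 5 of 25 members (SQLE, SC5D, INSIG1, STARD4 and ELOVL5) were below the other 16 arrays on both of these, as were 9.57% of all probe sets. A further 10 (MVK, MVD, TM7SF2, EBP, SREBF1, SREBF2, ACACA, ME1, ELOVL6 and FADS2) were above them on both, as were 14.1% of all probe sets. HMGCS1, IDI1, FASN and SCD stayed inside the range of the other arrays on both. The members thus parted into a low and a high set on the same 2 arrays. Enzymes of the same branch parted too, with SQLE and SC5D low and TM7SF2 and EBP high. The part of the low actin signal in these values was not tested.

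**Figure D2:**
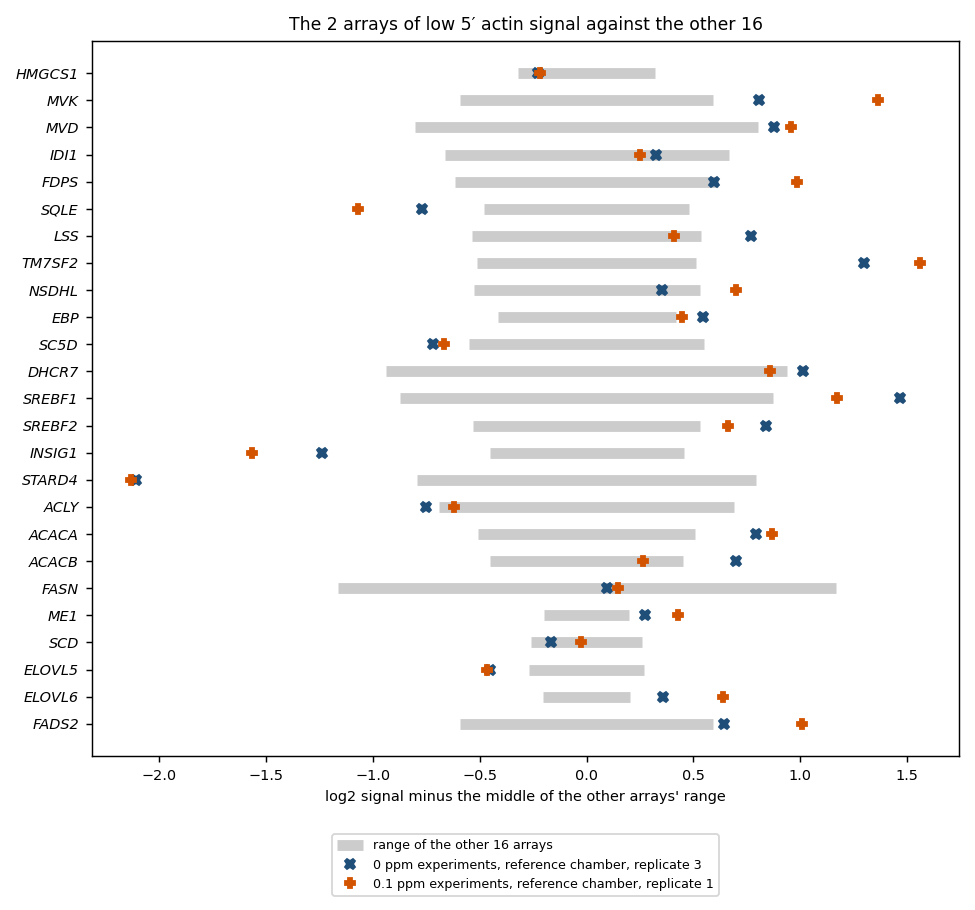
Log2 signal of each member on the 2 reference-chamber arrays of low 5′ actin signal (symbols), set against the range of the other 16 arrays (grey bars), centred on the middle of that range. STARD4 and INSIG1 lie far to the left of their bars, and TM7SF2, MVK and SREBF1 to the right.

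The other difference concerned IDI1. Its 6 highest arrays, at 13.44 to 14.02, were the same 6 arrays whose brightest probe set reached 38336 to 45549, while on the other 12 arrays the brightest probe set stayed at or below 34697 and IDI1 lay at 12.69 to 13.23. IDI1 was the 1 member of 25 whose signal parted these arrays without overlap, and 1.09% of all probe sets did so. The part of this array difference in IDI1 was not tested. Its probe set is of a type whose probes can match other transcripts, so its level is less certain than the rest.

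The exposure chamber was compared with its reference chamber at each concentration, and with the exposure chamber at 0 ppm, to see whether formaldehyde moved these genes. No member passed the study's threshold, an unadjusted p under 0.05 in limma, in any of 7 comparisons, and no probe set of the 54675 passed after Benjamini-Hochberg adjustment. At 0 ppm, where neither chamber carried formaldehyde, 4.84% of all probe sets passed unadjusted and 0 of 25 members did. The shares of all probe sets were 4.00% at 0.1 ppm and 3.92% at 0.5 ppm between chambers. They were 4.47% for 0.1 against 0 ppm and 4.56% for 0.5 against 0 ppm within the exposure chamber. Both of the latter comparisons share the 3 arrays of the exposure chamber at 0 ppm.

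At 0 ppm, 10 members were higher and 15 lower in the exposure chamber, with a median difference of -0.15 log2 against -0.071 over all probe sets. SREBF2, the regulator of the sterol branch, read 9.0, 9.46 and 9.78 in the reference and 8.73, 8.47 and 8.92 in the exposure chamber. The groups did not overlap, and the difference was -0.71 ± 0.32 (SE, n = 3 per group; limma adjusted p = 0.880). It was the 1 member of 25 whose groups did not overlap, and 10.0% of all probe sets were parted in that way. STARD4 differed by 0.76 ± 0.63 and INSIG1 by 0.50 ± 0.40. Without the reference array of low 5′ actin signal these came to 0.17 each and SREBF2 to -0.53, and the balance turned, with 14 members higher, 11 lower and a median of 0.015.

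At 0.1 ppm, again 10 members were higher and 15 lower, with a median of -0.027 against -0.073 over all probe sets. All 5 genes of fatty acid synthesis were lower, with a median of -0.18, none past the threshold. At 0 ppm 4 of these 5 were lower too, also with a median of -0.18, and in the exposure chamber 4 of the 5 were higher at 0.1 than at 0 ppm. Without the low-actin array the 0.1 ppm median of the 5 was -0.072. STARD4 differed by 0.82 ± 0.75, SREBF1 by -0.79 ± 0.51, TM7SF2 by -0.79 ± 0.52, MVK by -0.63 ± 0.48 and SQLE by 0.55 ± 0.47. With the low-actin reference array left out, STARD4 differed by 0.0086, SREBF1 by -0.56, TM7SF2 by -0.32, MVK by -0.29 and SQLE by 0.20. MVD was the 1 member whose groups did not overlap, where 7.87% of all probe sets were parted.

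At 0.5 ppm, 13 members were higher and 12 lower, with a median of 0.0041 against -0.042 over all probe sets. Neither chamber here holds one of the 2 low-actin arrays. The exposure array of replicate 3 still read 7.82 for 5′ actin, near the low end of the other arrays. No member reached 0.4 in size: the ends were MVD at 0.36 ± 0.48 and SREBF1 at -0.34 ± 0.50. TM7SF2 alone had groups that did not overlap, with 7.56, 7.83 and 7.57 in the reference and 7.5, 7.42 and 7.32 in the exposure chamber, a difference of -0.24 ± 0.22, and 6.75% of all probe sets were so parted.

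Within the exposure chamber, 16 members were higher and 9 lower at 0.1 than at 0 ppm, with a median of 0.044 against -0.034 over all probe sets. Without the 0.1 ppm array of replicate 2 the median was -0.044. FDPS read 12.86, 12.60 and 13.03 at 0.1 ppm and 12.58, 12.40 and 12.38 at 0 ppm. DHCR7 read 7.92, 8.46 and 7.74 against 7.73, 7.70 and 7.71. These and ME1 made 3 of 25 members whose groups did not overlap, all higher at 0.1 ppm, where 8.57% of all probe sets were parted in either direction. The differences were 0.37 ± 0.23 for FDPS, 0.33 ± 0.27 for DHCR7 and 0.12 for ME1, whose next probe set went the other way, at -0.14. Each of the 3 had an interval that took in 0.

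At 0.5 against 0 ppm, 11 members were higher and 14 lower, with a median of -0.055 against -0.035. MVK differed by -0.44 ± 0.30 and SREBF1 by -0.43 ± 0.35. TM7SF2 alone had groups apart, lower at 0.5 ppm by 0.27 on the log2 scale, and 8.55% of all probe sets were parted. The difference between chambers at 0.1 or at 0.5 ppm was also tested against that at 0 ppm, which 3.21% and 3.69% of all probe sets passed unadjusted and no member did. The members farthest from 0 were SREBF2 at 0.44 ± 0.52 for 0.1 ppm, and STARD4 at -0.73 ± 0.72 and SREBF2 at 0.72 ± 0.43 for 0.5 ppm. Without the low-actin arrays the values at 0.5 ppm were -0.13 for STARD4 and 0.54 for SREBF2, and SREBF1 was farthest from 0 at 0.1 ppm, at -0.66.

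The intervals set what could have been seen. A change by 2-fold, or 1 log2 unit, in either direction lay outside the 95% interval for 14 of 25 members at 0 ppm, 6 at 0.1 ppm and 18 at 0.5 ppm between chambers. Within the exposure chamber it lay outside for 18 members at 0.1 ppm and 20 at 0.5 ppm. For the remaining members the interval took in such a change, so it was not excluded with 3 arrays a group. The lowest limma adjusted p of any member was 0.880 at 0 ppm and 0.998 or more elsewhere.

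**Figure D3:**
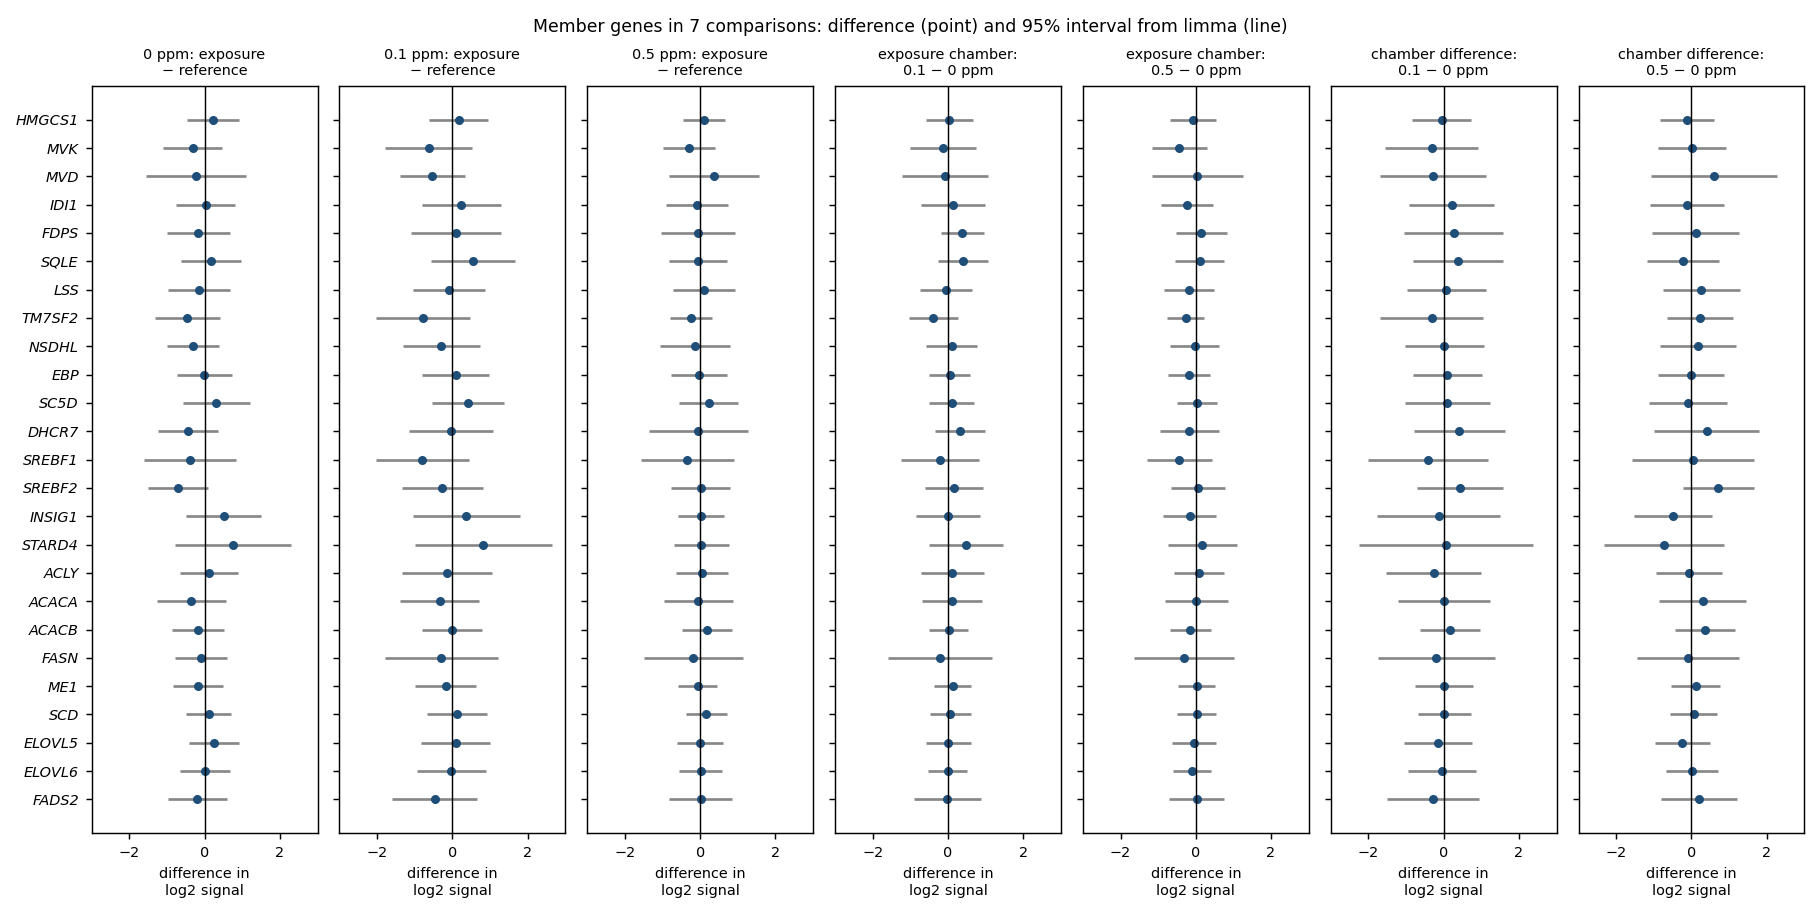
Difference in log2 signal (horizontal axis) of each member with its 95% interval from limma in the 7 comparisons. Every interval crosses 0, and those at 0.1 ppm between chambers are, by their median, the widest of the 5 direct comparisons.

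Other genes of the same pathways gave the same count. Of 33 listed, 28 had a probe set of their own, among them MSMO1 and HSD17B7 of sterol demethylation, SCAP, the escort of the SREBF proteins, INSIG2, ACSS2 and SLC25A1. In each of the 7 comparisons 0 of the 28 passed the unadjusted threshold. Their median differences ran from -0.11 at 0 ppm between chambers to 0.071 for the difference of differences at 0.5 ppm.

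All 9 experiments were then pooled, the exposure chamber against the reference chamber with the experiment as a block and with no regard to concentration, a comparison added after the data had been seen. Here 3 of 25 members passed the unadjusted threshold, as did 10.0% of all probe sets, and none passed after adjustment. TM7SF2 was lower in the exposure chamber by 0.50 on the log2 scale (a difference of -0.50 ± 0.18, SE over 9 experiments; limma adjusted p = 0.494), MVK differed by -0.42 ± 0.17 and SC5D by 0.32 ± 0.13.

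TM7SF2 was lower in the exposure chamber in 9 of 9 experiments, 0 ppm included, as were 1.37% of all probe sets. Its differences were -0.18, -0.19 and -1.03 at 0 ppm, -1.69, -0.15 and -0.52 at 0.1 ppm, and -0.066, -0.40 and -0.24 at 0.5 ppm. The 2 largest came from the experiments with a reference array of low 5′ actin signal. Over the other 7 experiments TM7SF2 was lower in all 7, by -0.52 to -0.066, with a mean of -0.25 that still passed unadjusted (limma adjusted p = 0.753), while MVK (-0.24) and SC5D (0.19) no longer passed. Leaving out the 0 ppm experiment of replicate 3 alone took TM7SF2 (-0.43) below the threshold too, and left 0 members past it, and quantile normalization also cost TM7SF2 its call (-0.42).

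SCD was the opposite case, higher in the exposure chamber in 9 of 9 experiments, as were 0.395% of all probe sets. The steps were small, from 0.017 to 0.29, with a mean of 0.13 ± 0.093 and a 95% interval of -0.074 to 0.34, and it did not pass. That SE is limma's and also carries a spread pooled over all probe sets. With an offset of 32 before log2, SCD passed unadjusted (limma adjusted p = 0.281). Over the 7 experiments without a low-actin array its mean was 0.12. This rests on the brightest probe set alone: the 3 other probe sets of SCD, all above the median signal, were lower in the exposure chamber on average, by -0.27, -0.085 and -0.28, and each in 6 of 9 experiments, and their r with the brightest over 18 arrays was 0.11, 0.18 and 0.060. SQLE was higher in 8 of 9, by a mean of 0.23 that came to 0.087 over those 7.

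**Figure D4:**
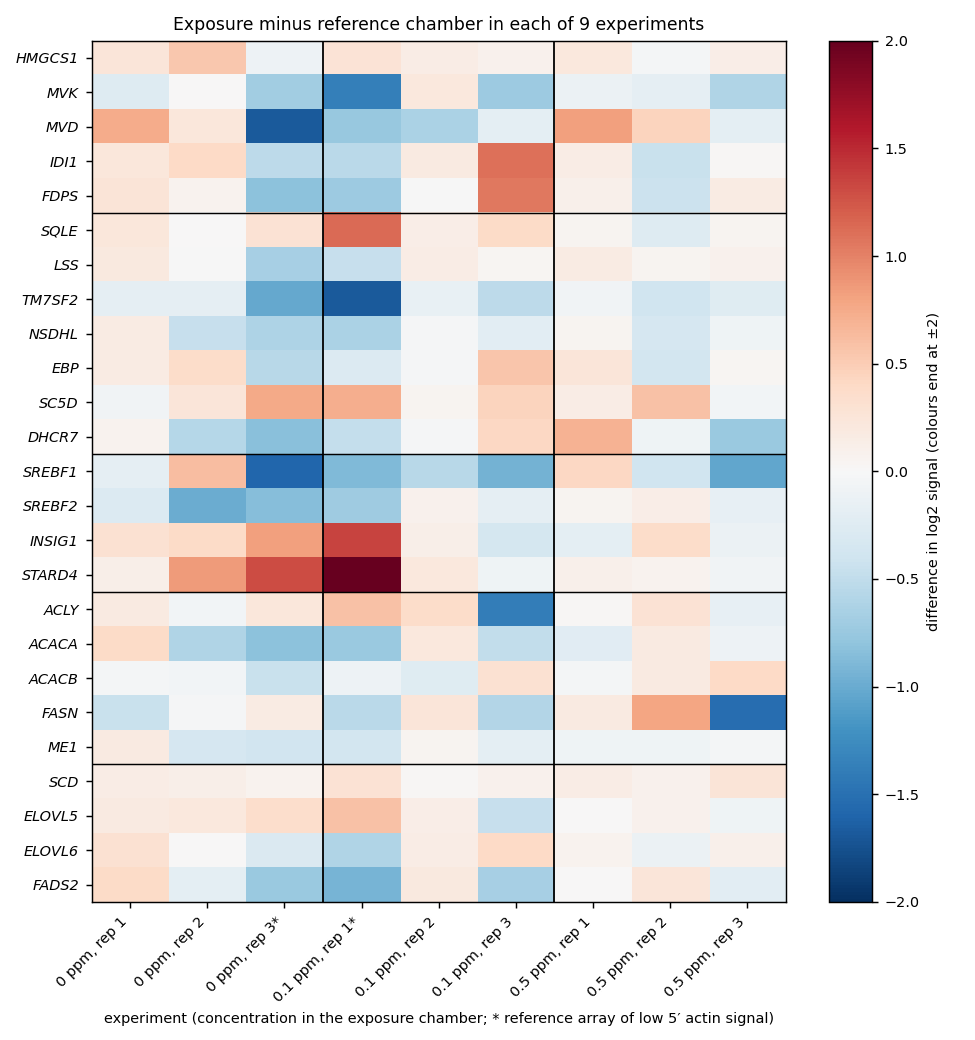
Exposure minus reference chamber in log2 signal (colour) for each member (rows, in pathway order) in each of 9 experiments (columns); asterisks mark experiments whose reference array had low 5′ actin signal. The strongest colour, the 2.34 of STARD4, stands in a marked column. FASN at -1.52 (0.5 ppm, replicate 3) and ACLY at -1.38 (0.1 ppm, replicate 3) stand in unmarked ones. The exposure arrays of those experiments read 7.82 and 7.88 for 5′ actin, near the low end of the unmarked arrays. The TM7SF2 row is below 0 and the SCD row above 0 throughout.

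The members were also compared between the 9 experiments, whatever the chamber. No member passed limma's F test at an adjusted p under 0.05, nor did any probe set (0%). Unadjusted, 9.61% of all probe sets and 0 of 25 members passed. Without both low-actin arrays 3 members did (LSS, NSDHL and STARD4), and 12.2% of all probe sets. The median F of the members was 1.55 against 1.31 over all probe sets. The 6 members of largest F follow, each with its 18 values in the order of replicates 1, 2 and 3.

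NSDHL (F = 2.94, adjusted p = 0.534 in limma) read 11.26, 11.71 and 11.83 in the reference and 11.42, 11.26 and 11.22 in the exposure chamber of the 0 ppm experiments. In the 0.1 ppm experiments it read 12.18, 11.71 and 11.18 against 11.54, 11.68 and 10.97, and in the 0.5 ppm experiments 10.95, 12.01 and 11.24 against 11.00, 11.67 and 11.15. Replicate 2 of the 0.1 and 0.5 ppm experiments was high in both chambers, and replicate 1 of the 0.5 ppm experiments low in both.

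DHCR7 (F = 2.86) read 7.65, 8.27 and 8.55 against 7.73, 7.70 and 7.71 at 0 ppm. It read 8.40, 8.48 and 7.33 against 7.92, 8.46 and 7.74 at 0.1 ppm, and 6.60, 8.23 and 7.93 against 7.29, 8.13 and 7.19 at 0.5 ppm. The same pair of experiments was high in both chambers, with 8.13 or more in all 4 cultures.

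LSS (F = 2.71) read 9.37, 9.87 and 10.30 against 9.56, 9.87 and 9.64 at 0 ppm. It read 9.94, 9.91 and 9.32 against 9.48, 10.06 and 9.36 at 0.1 ppm, and 8.99, 9.82 and 9.42 against 9.16, 9.87 and 9.51 at 0.5 ppm. In the 7 experiments without a low-actin array its chambers never differed by more than 0.20. Without both low-actin arrays its F was 6.48 (limma adjusted p = 0.304), the largest shift among these 6.

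STARD4 (F = 2.67) read 8.78, 8.11 and 6.66 against 8.89, 8.97 and 7.97 at 0 ppm. It read 6.64, 9.34 and 8.81 against 8.97, 9.56 and 8.72 at 0.1 ppm, and 8.66, 9.07 and 8.52 against 8.77, 9.13 and 8.46 at 0.5 ppm. Outside the 0 ppm experiment of replicate 2 and the 2 low-actin arrays, both chambers of an experiment lay close together.

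SQLE (F = 2.33) read 11.07, 10.96 and 10.42 against 11.29, 10.97 and 10.71 at 0 ppm. It read 10.12, 11.53 and 10.86 against 11.26, 11.67 and 11.24 at 0.1 ppm, and 10.83, 11.61 and 10.98 against 10.88, 11.35 and 11.04 at 0.5 ppm. Its 4 highest values were those of replicate 2 at 0.1 and 0.5 ppm.

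INSIG1 (F = 2.13) read 12.52, 12.22 and 11.36 against 12.83, 12.60 and 12.18 at 0 ppm. It read 11.03, 12.93 and 12.51 against 12.38, 13.05 and 12.16 at 0.1 ppm, and 12.52, 12.27 and 12.26 against 12.32, 12.65 and 12.14 at 0.5 ppm. The 0.1 ppm experiment of replicate 2 gave both of its highest values.

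When each member's experiments were ranked by their mean, leaving out the 2 low-actin arrays, the 0.1 ppm experiment of replicate 2 came highest for 13 of 25 members and among the top 2 for 17 (68%), against 25.1% of all probe sets. The 0.5 ppm experiment of replicate 2 was among the top 2 for 11 members (44%, against 21.1%). The lowest place fell to the 0.5 ppm experiment of replicate 1 for 10 members (40%, against 9.17%) and to the 0 ppm experiment of replicate 3 for 7 (28%, against 11.4%). EBP, DHCR7, SREBF1, SREBF2, SQLE, STARD4, ELOVL5 and FADS2 all had these 2 replicate 2 experiments in their top 2 places, as did NSDHL and ACACA in the other order. Without the low-actin arrays, the 0 ppm experiment of replicate 3 and the 0.1 ppm experiment of replicate 1 rest on their exposure-chamber array alone. With all 18 arrays, the 0.1 ppm experiment of replicate 1, which holds a low-actin array, was highest for 10 members (40%, against 11.7%) and that of replicate 2 for 9 (36%, against 13.6%). Top 2 places then numbered 11 for the 0.1 ppm experiment of replicate 2 (24.2% of all probe sets) and 7 for the 0.5 ppm experiment of replicate 2 (18.2%). The members share their arrays, so these counts are not independent of each other.

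Markers of dividing cells are set beside these ranks. The means given here use all 18 arrays, whereas the first ranks above leave out the 2 low-actin arrays. With all 18 arrays, 0 members were highest in the 0.5 ppm experiment of replicate 2. The mean of 8 proliferation genes was highest at 11.53 in replicate 2 of 0.1 ppm and 11.47 in replicate 2 of 0.5 ppm, and lowest at 10.79 in replicate 1 of 0.5 ppm. The mean of the 25 members was 10.69, 10.54 and 10.16 in those experiments. Elsewhere the order of the proliferation and member means differed in part. They were 11.22 and 10.53 in replicate 1 of 0.1 ppm, and 10.90 and 10.28 in its replicate 3. In the 0 ppm experiments they were 11.07 and 10.40, 10.97 and 10.50, and 10.93 and 10.42 for replicates 1, 2 and 3. Replicate 3 of 0.5 ppm had 10.93 and 10.29. All 8 proliferation genes were above the median probe set, and their summed signal ranged from 27147 to 41243 over the arrays. Their part in the members' levels was not tested. In RNA from whole cultures, more cells of a state and more RNA per cell cannot be told apart.

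**Figure D5:**
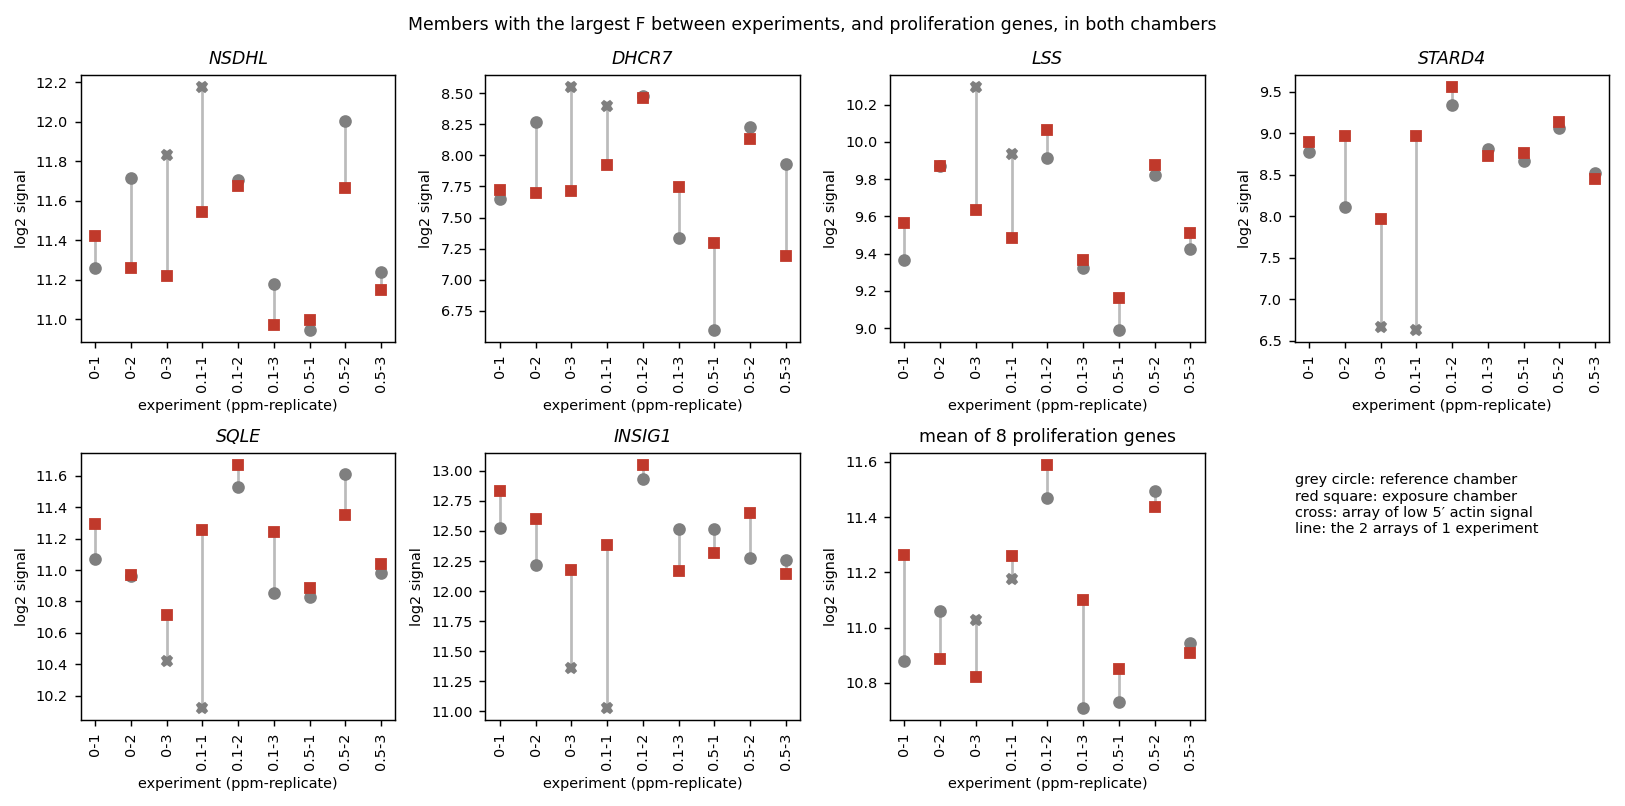
Log2 signal (vertical axis) in both chambers of each experiment (horizontal axis, ppm and replicate) for the 6 members of largest F and for the mean of 8 proliferation genes; grey circles are reference and red squares exposure chambers, crosses are low-actin arrays. The experiments 0.1-2 and 0.5-2 stand high for SQLE, STARD4 and DHCR7, where the proliferation mean reads 11.53 and 11.47.

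Members with several probe sets gave a check of how far these values depend on the brightest. Of 44 further probe sets of the members, 30 were above the median signal. The number past the unadjusted threshold was 1, 0, 1, 1, 4, 0 and 0 over the 7 comparisons, in the order given above. The 4 were 9.09% of the 44, where 4.56% of all probe sets passed. A count of 1 was 2.27% of the 44, where 3.92% to 4.84% of all probe sets passed. Where 0 of the 44 passed, 3.21% to 4.00% of all probe sets did. Among the 30, 1 each passed in both comparisons within the exposure chamber. Over the 18 arrays, Pearson's r with the brightest was 0.98 for the next probe set of IDI1, 0.88 for one of INSIG1 and 0.86 for DHCR7. It was -0.82 for a dimmer probe set of ELOVL5, -0.70 for one of ELOVL6, -0.42 for one of ACLY and -0.33 for one of ME1. Of the 18 members with a further probe set above the median signal, 7 had one with r below 0.2: these 4, SCD, ACACA and SQLE, although another of SQLE reached 0.91. For these 7 genes the pattern over arrays depended on the probe set read, and their differences between groups are uncertain to that extent.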

How the data were processed

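RNA from 18 A549 cultures was hybridised to HG-U133 Plus 2.0 arrays after labelling from the 3′ end. The authors made MAS5 signals in R, and the deposited values are linear intensities of 54675 probe sets, scaled per array to a trimmed mean (2% at each end) of 500. MAS5 is also the tool named in the submitters' processing notes. Here log2 was taken without a floor. GEO's platform annotation named 1 gene for 41097 probe sets, several for 1801 and none for 11777; symbols were used as it gives them. Promoters came from RefSeq.

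Comparisons were fitted over all probe sets with limma 3.58.1 (R 4.3.3) on the 6 arrays concerned (12 for differences of differences), the test tested first on simulated data. The threshold was the study's, an unadjusted p under 0.05; Benjamini-Hochberg adjustment covered all probe sets. Experiments were compared by an F test with the chamber as covariate. Figures were drawn with matplotlib.

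Members and lists were chosen with earlier results of these data known. By rule all members are named, with values on every array for those past a threshold in the 7 comparisons and the 6 of largest F between experiments; single values of others were chosen after they were seen. The chambers of an experiment share a raw-file number in the labels, which pairs them; deviations from group means correlated at 0.0086 to 0.49 over the 9 pairs, 6 of them above 0.1. The arrays of a group come from different experiments by those numbers, and p-values rest on the spread between these arrays. Limma draws that spread towards a value pooled over all probe sets, which enters every SE, interval and p-value. The number of arrays, 3 a group, limits the precision. Alternatives tried were other normalizations, an offset of 32, filters, a trended prior, other probe sets, the replicate block and leaving out arrays.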

Additional observations from a re-analysis of the deposited data

How the results depend on the processing

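A count and a median over the members were recomputed for each comparison under each alternative that applied to it. This gave 294 values, counts and medians together, and 277 of these stayed within their limits. A count had to stay within a set factor of the main count. A median difference had to stay within the replicate spread of the members' mean, and a median F within a set amount. A median near 0 could thus change sign, and a count that stayed at 0 could not leave its limits. Under none of the alternatives did a member pass an adjusted p under 0.05 in limma (0 members, lowest 0.170). With an offset of 32 before log2, 1 member passed unadjusted at 0 ppm between chambers (SREBF2), 1 at 0.1 against 0 ppm (FDPS) and 1 at 0.5 against 0 ppm (TM7SF2). SREBF2 also passed at 0 ppm, as the 1 member, with probe sets below the median signal removed, with a trended prior, and without the reference array of replicate 1; leaving out single arrays gave 0 to 1 there, and a median of -0.31 (without reference replicate 1) to 0.015 (without reference replicate 3, or both low-actin arrays). Over the 9 experiments, 10.0% of all probe sets passed in the main fit. The 3 members past the threshold became 9 with the offset, 6 above the median signal and 7 with the trend. The shares of all probe sets under these settings are not given here, so the counts are not read as a result about the members. With the highest array signal as covariate 6 members passed, and 1 did without both low-actin arrays. Under quantile normalization 2 passed: TM7SF2 (-0.42) and MVK (-0.35) no longer did, and STARD4 (0.62) did. On the mean of a gene's probe sets 3 passed, but without MVK (-0.26) and SC5D (0.079) and with SQLE (0.23) and NSDHL (-0.32). Leaving out single experiments gave 0 to 3: 0 without the 0 ppm experiment of replicate 3, and 1 without the 0.1 ppm experiment of replicate 1 or of replicate 3. Leaving out 1 array turned the sign of the median in the other comparisons as well, with ranges of -0.18 to 0.026 at 0.1 ppm and -0.12 to 0.14 at 0.5 ppm between chambers, -0.044 to 0.14 and -0.17 to 0.0040 for 0.1 and 0.5 against 0 ppm, and -0.13 to 0.054 and -0.074 to 0.18 for the differences of differences. The replicate block left 0 members past the threshold in each of the 7 comparisons, with 2135 to 3109 probe sets past it, and changed no call. Probe sets past the threshold fell, with those below the median removed, to 1010, 394, 471, 906, 976, 171 and 416 in the 7 comparisons, and, on the mean of a gene's probe sets, to 1003, 710, 759, 869, 930, 583 and 725 (2326 between chambers over all experiments). The offset gave 1021 for the difference at 0.1 ppm and the trend 1330 at 0.5 ppm between chambers. Without reference replicate 1, 4979 passed at 0 ppm and 3442 for the difference at 0.5 ppm. Over the 9 experiments 3591 passed without the low-actin arrays and 8362 with the covariate. Between experiments, 145, 101 and 154 probe sets, and no member, passed adjusted with the offset, the filter and the trend. The cause of these shifts was not tested. The members of lowest mean signal were MVD at 5.35, SREBF1 at 6.0 and FASN at 6.10, and no detection calls were used.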
